A study of Mus musculus with 20 samples.

Results

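The unfolded protein response and the integrated stress response were followed through 10 of their regulators, Atf4, Atf6, Ddit3, Xbp1, Ern1, Eif2ak3, Ppp1r15a, Trib3, Asns and Chac1, in RNA sequencing of mouse microglia. The genes were taken by symbol, from a set drawn up with earlier results of these data known, and all 10 were found among the 24062 genes listed. The 4 groups were made up of 6 mThy1-α-synuclein mice and 4 wild-type mice aged 7 months, and of 5 mice of each genotype aged 10 months. All 20 mice were males on the B6D2F1/J background, and each sample was the bead-selected microglia of 1 whole brain. The mThy1-α-synuclein mice were hemizygous for a human α-synuclein transgene inserted on the X chromosome and driven by the murine Thy-1 promoter, which is used for expression in neurons. The wild-type mice were their littermates and carried no transgene. The labels name IBA1 as the antigen of the beads and the study's methods name CD11b, an antigen that other myeloid cells also carry. Mice of 1 age were processed together and the 2 ages apart, so levels were not compared between ages, and only the genotype effect was. In that comparison too, age and processing cannot be told apart.

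Cells meet unfolded protein in the endoplasmic reticulum (ER) with 3 membrane sensors. IRE1, the product of Ern1, splices Xbp1 mRNA into the form that encodes the active factor. ATF6 is cleaved in the Golgi to release a transcription factor, and PERK, the product of Eif2ak3, phosphorylates the initiation factor eIF2. XBP1 and ATF6 drive genes for ER chaperones and disulfide isomerases, of which Hspa5 (BiP) is the best known. Phosphorylated eIF2 slows general translation but favors translation of Atf4, and other eIF2 kinases that sense amino acid shortage, viral RNA or heme feed into the same step, which is why it is called the integrated stress response. ATF4 drives Ddit3 (CHOP), Trib3, Asns, Chac1 and, with CHOP, Ppp1r15a (GADD34), whose product reverses the phosphorylation. Much of this control acts on protein and on splicing, and the gene counts used here hold total mRNA per gene and do not separate the 2 forms of Xbp1.

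Promoters of these genes were searched for the elements of their regulators, because later comparisons set ATF4 targets beside XBP1 and ATF6 targets. Promoters were RefSeq windows on GRCm38.p6 from 250 bases before to 50 after the annotated start, and 9 of the 10 regulators had one. Atf6 was not matched. The ATF4 and C/EBP composite element was searched as TGATGNAA on both strands. It was present in the windows of Asns, Trib3 and Chac1, 3 of 9 regulators, and in 4.06% of all 27025 promoters. In the 30 bases printed for each, capitals mark the element, which reads as its reverse complement in Trib3 and Chac1.
Asns, chr6:7693214-7693243, minus strand: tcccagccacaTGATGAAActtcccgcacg
Trib3, chr2:152344028-152344057, minus strand: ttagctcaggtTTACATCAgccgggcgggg
Chac1, chr2:119351038-119351067, plus strand: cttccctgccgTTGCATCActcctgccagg

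The ER stress element, through which ATF6 and XBP1 act, was searched on both strands as CCAAT and CCACG set 9 free bases apart. It was found in 0.13% of all promoters, in 0 of the 9 regulators and in 6 of 17 matched ER folding genes, namely Hspa5, Hsp90b1, Calr, Canx, Pdia6 and Creld2. The copy in Hspa5 is printed with the whole element in capitals, because Hspa5 is the gene compared most closely with Xbp1 in these data.
Hspa5, chr2:34772019-34772048, plus strand: acttcaCCAATCGGAGGCCTCCACGacggg

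The promoters of Ddit3 and Xbp1, the 2 regulators with a genotype difference, are shown over the 120 bases that end just before the earlier of their starts in RefSeq (Xbp1) and GENCODE (Ddit3).
Ddit3, chr10:127290654-127290773, plus strand: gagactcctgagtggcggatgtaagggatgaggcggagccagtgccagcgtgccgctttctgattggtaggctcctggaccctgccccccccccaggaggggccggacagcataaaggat
Xbp1, chr11:5520521-5520640, plus strand: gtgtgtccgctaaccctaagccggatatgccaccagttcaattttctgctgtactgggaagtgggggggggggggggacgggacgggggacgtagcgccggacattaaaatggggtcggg
Neither window held the composite element, the ER stress element, its second form, ATTGG and CCACG set 1 free base apart (0.037% of all promoters), the unfolded protein response element TGACGTGG (0.607%) or the cyclic AMP response element TGACGTCA (1.88%), each searched on both strands. Both ER stress elements end in CCACG, and the last 2 elements share their first 6 letters. The cyclic AMP response element was present in 1 regulator, Ppp1r15a. These are letter matches only, and the lack of a match says only that these letters are not in the window.

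The libraries held 33404096 to 77806399 reads on genes. Microglial markers were abundant in every library, with 16 markers summing to between 2297740 and 2906520 normalized counts, a normalized count being a gene's reads divided by the size factor of its library within its age. The label of genotype was checked on Thy1, the gene whose promoter drives the transgene. At 7 months Thy1 was listed at 919 ± 337 normalized counts (SD, n = 6) with the transgene and 39.2 ± 14.4 (n = 4) without it, and at 10 months at 1423 ± 263 and 17.4 ± 8.80 (n = 5 each). Genes of other cells also differed between genotypes. At 10 months all 9 neutrophil markers, 7 monocyte markers and 8 border macrophage markers were lower in mThy1-α-synuclein mice, with 1, 4 and 3 passing the test. All 9 neutrophil and 7 monocyte markers were lower at 7 months too, while 5 of the 8 border macrophage markers were higher, with 0 passing in each list. At 7 months 6 of 13 neuron markers, 5 of 11 astrocyte, 3 of 11 oligodendrocyte, 2 of 10 endothelial and mural and 5 of 11 lymphocyte markers were lower by the test, and 1 astrocyte marker was higher. Of the 16 microglial markers 1 was higher by the test at 7 months and 4 at 10 months. Over all genes 4.93% passed at 7 months and 7.67% at 10 months. Fewer cells of a type and less RNA per cell cannot be told apart in such samples.

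At 10 months, 2 of the 9 regulators that could be tested were lower in mThy1-α-synuclein mice. Ddit3, the gene of the stress factor CHOP, fell to 0.707 times the wild-type level, and Xbp1, the gene of the spliced UPR factor, fell to 0.751 times. Atf4, Trib3 and Asns also had negative differences without passing the test, while the 3 sensor genes Ern1, Atf6 and Eif2ak3 and the phosphatase gene Ppp1r15a had differences whose 95% intervals included 0. At 7 months none of the 10 passed, and Xbp1 had the opposite sign, with every mThy1-α-synuclein mouse above every wild-type mouse. The genotype effect on Xbp1 differed between the ages by the test of that difference.

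The test was limma's moderated test on log2(normalized count + 1), with p-values adjusted over all tested genes by the Benjamini-Hochberg method and a threshold of 0.05. At 10 months it called 7.67% of 13627 genes, 3.79% as lower and the rest as higher. Among the 9 tested regulators 0 were higher and 2 lower by the test, 5 had an unadjusted p under 0.05 against 23.5% of all genes, and the median log2 fold change was -0.29 against -0.0026 over all genes. At 7 months limma called 4.93% of 13887 genes, 2.23% as higher, and 0 of the 10 regulators. There 1 regulator, Xbp1, had an unadjusted p under 0.05 against 21.3% of all genes, edgeR and DESeq2 also called 0, and the median log2 fold change was 0.067. Groups did not overlap for 1 of 10 regulators at 7 months, where this held for 7.53% of all genes, and for 1 of 9 at 10 months, where it held for 7.27%. Chac1 did not reach the filter of 10 normalized counts in at least 5 mice at 10 months. P-values here measure the spread between mice.

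**Figure D1:**
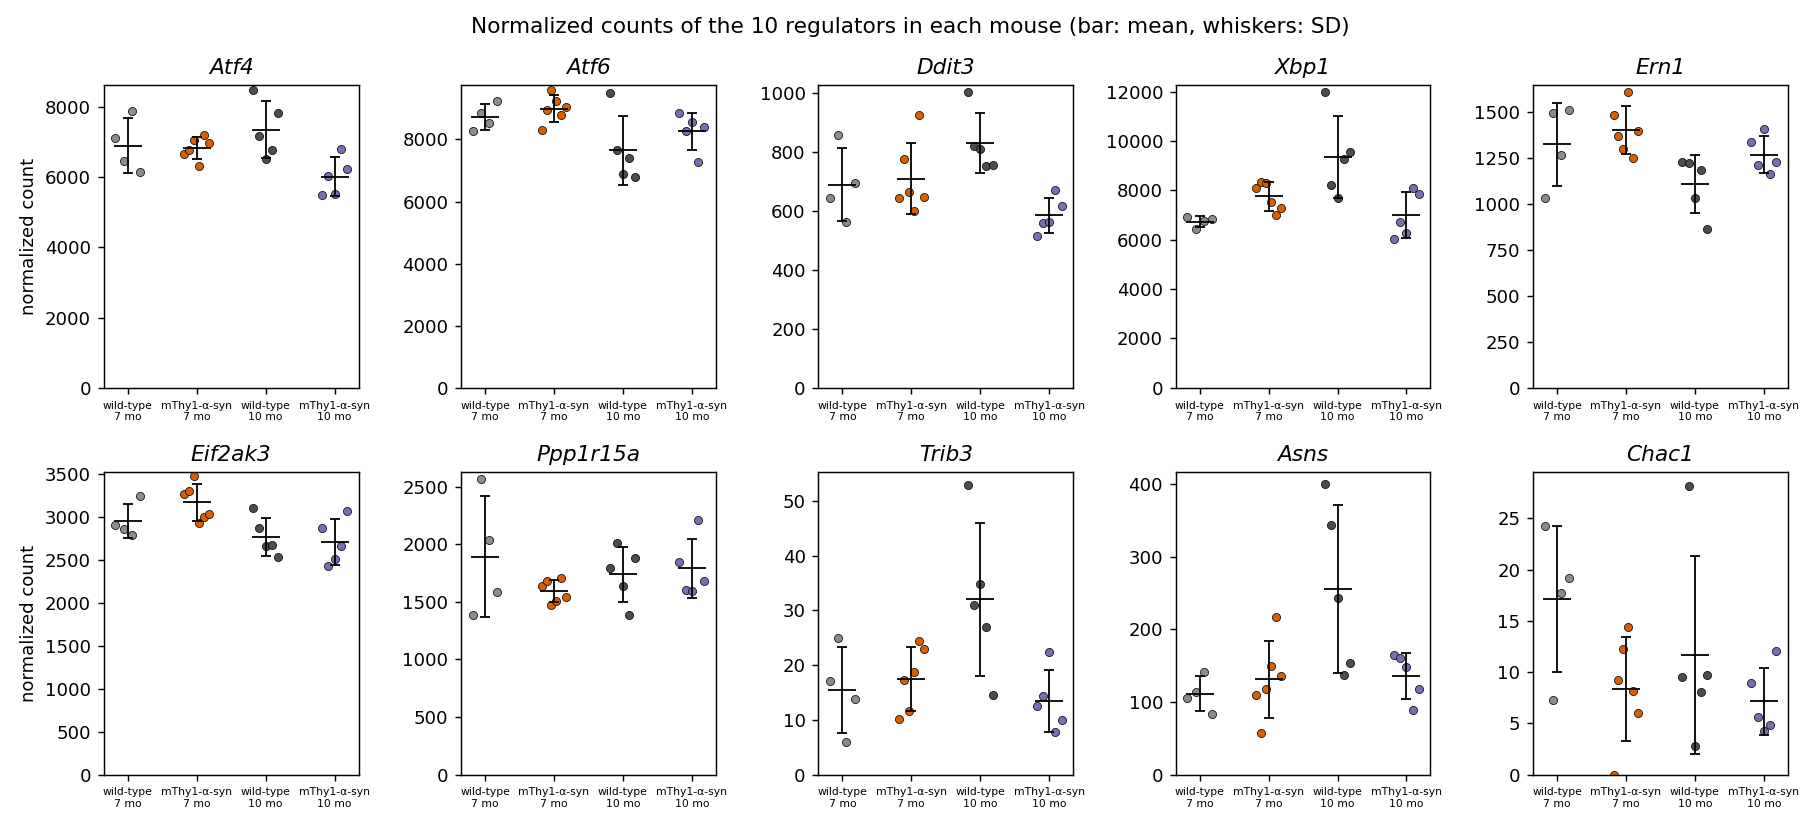
Normalized counts of the 10 regulators (y axis, from 0) in each mouse, by genotype and age, with the mean as a bar and the SD as whiskers. For Ddit3 at 10 months the highest mThy1-α-synuclein mouse, at 670.2, sits below the lowest wild-type mouse, at 753, and for Xbp1 at 7 months the lowest mThy1-α-synuclein mouse, at 6983, sits above the highest wild-type mouse, at 6906.

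Per kilobase of annotated exon, Atf4 and Xbp1 had the highest levels of the 10 and Trib3 and Chac1 the lowest. In wild-type mice at 10 months the means were 3119 ± 341 normalized counts per kilobase for Atf4, 2879 ± 507 for Xbp1, 828 ± 119 for Atf6, 593 ± 81.7 for Ppp1r15a, 484 ± 59.5 for Ddit3, 459 ± 37.0 for Eif2ak3, 135 ± 19.3 for Ern1, 93.5 ± 42.2 for Asns, 15.1 ± 6.57 for Trib3 and 7.12 ± 5.88 for Chac1 (SD, n = 5). Neighbors in that order whose mice overlapped were Atf4 and Xbp1, Ppp1r15a and Ddit3, Ddit3 and Eif2ak3, Ern1 and Asns, and Trib3 and Chac1. In the other 3 groups the order began with Atf4, Xbp1, Atf6 and Ppp1r15a as well, Ddit3 ranked sixth behind Eif2ak3, and Atf4 and Xbp1 overlapped in mThy1-α-synuclein mice at 10 months but in neither group at 7 months. The spread between mice of a group ran from a coefficient of variation of 3.16% for Xbp1 in wild-type mice at 7 months to 82.7% for Chac1 in wild-type mice at 10 months.

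Among the factors, Ddit3 had the smallest adjusted p at 10 months. It lies at chr10:127290774-127296288 on the plus strand of mm10 and encodes CHOP, a C/EBP family factor linked to cell death under lasting ER stress. At 10 months wild-type mice 1 to 5 had 1003, 822, 810.5, 753 and 757 normalized counts and mThy1-α-synuclein mice 1 to 5 had 516, 559, 562, 670.2 and 618. The groups did not overlap, and wild-type mouse 1 stood above the other wild-type mice. The log2 fold change was -0.50 ± 0.10 (SE), with a fold of 0.707 and a 95% interval of 0.606 to 0.825 (limma, adjusted p = 0.0120). The call was kept when any 1 mouse was left out, with a highest adjusted p of 0.0334, and without wild-type mouse 1 the log2 fold change was -0.43.

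At 7 months Ddit3 ran from 599 through a median of 656 to 924 normalized counts in the 6 mThy1-α-synuclein mice, and wild-type mice 1 to 4 had 644, 856, 561 and 696. These groups overlapped widely, and the log2 fold change was 0.041 ± 0.14 (limma, adjusted p = 0.899), with a 95% interval of -0.25 to 0.34. Subtracting the effect at 7 months from that at 10 months gave -0.54 ± 0.18, which did not pass the test (limma, adjusted p = 0.0655). Exons of Ddit3 overlap those of Mars by 68 bases and of Gm4189 by 13 bases on the opposite strand, and the strand setting of the counting is not given, so reads there cannot be told apart. Mars, a tRNA synthetase gene, had a log2 fold change of -0.23 at 10 months (limma, adjusted p = 0.213).

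Xbp1, at chr11:5520659-5525893 on the plus strand, encodes the factor made active by IRE1 splicing. At 10 months wild-type mice 1 to 5 had 11969.5, 8233, 7708, 9287 and 9563 normalized counts, and mThy1-α-synuclein mice 1 to 5 had 6042, 6729, 6263, 8094 and 7841. Wild-type mouse 1 was again the highest, and mThy1-α-synuclein mice 4 and 5 lay above wild-type mouse 3, so the groups overlapped. The log2 fold change was -0.41 ± 0.12, with a fold of 0.751 and a 95% interval of 0.632 to 0.893 (limma, adjusted p = 0.0457).

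The Xbp1 call at 10 months was close to the threshold. Leaving out any 1 of 8 of the 10 mice moved its adjusted p above 0.05, to at most 0.107, and only without mThy1-α-synuclein mouse 4 or wild-type mouse 3 did it stay below. Without wild-type mouse 1 the log2 fold change was -0.32 (limma, adjusted p = 0.0822).

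At 7 months Xbp1 ran from 6983 through a median of 7803 to 8330 in the mThy1-α-synuclein mice, above wild-type mice 1 to 4 at 6906, 6427, 6759 and 6841. The groups did not overlap, but the smallest gap between them was small beside the spread of the mThy1-α-synuclein mice. This log2 fold change of 0.20 ± 0.070 was a fold of 1.15, with a 95% interval of 1.04 to 1.27. It did not pass the threshold (limma, adjusted p = 0.112).

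Atf4, at chr15:80255184-80257541 on the plus strand, encodes the factor whose translation rises when eIF2 is phosphorylated. At 10 months its mRNA was at 8478, 7185, 6511, 6762 and 7840.3 normalized counts in wild-type mice 1 to 5 and at 5487, 6025, 5509, 6808 and 6232 in mThy1-α-synuclein mice 1 to 5. Only mThy1-α-synuclein mouse 4 lay within the wild-type range. The log2 fold change of -0.29 ± 0.084 stood just outside the threshold (limma, adjusted p = 0.0502), with a 95% interval of -0.47 to -0.11. DESeq2 placed it within, with an adjusted p of 0.0206. Atf4 passed under 7 of 20 alternatives, and without mThy1-α-synuclein mouse 3 its limma adjusted p was 0.122.

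At 7 months Atf4 ran from 6306 through 6881 to 7209 in mThy1-α-synuclein mice and was 7114, 6449, 7897 and 6135 in wild-type mice 1 to 4. The wild-type mice spanned the whole range of the other group. Here the log2 fold change was -0.0084 ± 0.077 (limma, adjusted p = 0.968), with a 95% interval of -0.17 to 0.16, and the difference between the ages was -0.28 (limma, adjusted p = 0.147).

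The 3 sensor genes did not pass the test at either age. Ern1, at chr11:106394650-106487852 on the minus strand, encodes the kinase and nuclease IRE1. At 10 months it was at 1228, 1223, 1032, 1183 and 863 normalized counts in wild-type mice 1 to 5 and at 1335, 1211, 1409, 1160.3 and 1225 in mThy1-α-synuclein mice 1 to 5. Its log2 fold change was 0.21 ± 0.10 (limma, adjusted p = 0.243), opposite in sign to that of Xbp1, the substrate of IRE1. At 7 months the groups overlapped, at 1248 to 1609 against 1031 to 1512, with a log2 fold change of 0.091 ± 0.11 (limma, adjusted p = 0.675).

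Atf6, at chr1:170704674-170867771 on the minus strand, encodes the sensor that becomes a factor on cleavage. At 10 months it was at 9505, 7655, 6871, 7404 and 6787 in wild-type mice 1 to 5 and at 8841, 8255, 8550.4, 7262 and 8389 in mThy1-α-synuclein mice 1 to 5. Wild-type mouse 1 was above all other mice of its age, and the other 4 wild-type mice were below 4 of the 5 mThy1-α-synuclein mice. The log2 fold change was 0.12 ± 0.090 (limma, adjusted p = 0.457) at 10 months and 0.043 ± 0.065 (adjusted p = 0.738) at 7 months, when the groups ran from 8302 to 9600 and from 8266 to 9233.

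Eif2ak3, at chr6:70844515-70905245 on the plus strand, encodes PERK. At 10 months wild-type mice 1 to 5 had 3101, 2873, 2657, 2676 and 2531 normalized counts and mThy1-α-synuclein mice 1 to 5 had 2869, 2425, 2513, 2664 and 3072. The ranges nearly coincided, and the log2 fold change was -0.033 ± 0.081, with a 95% interval of -0.20 to 0.14 (limma, adjusted p = 0.849). At 7 months the values ran from 2930.0 to 3474 with the transgene and from 2794 to 3239 without it, with a log2 fold change of 0.10 ± 0.074 (limma, adjusted p = 0.457). Its exons overlap Gm43292 by 485 bases on the opposite strand.

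Of the 2 genes of feedback, Ppp1r15a showed no difference that passed and Trib3 was low in every library. Ppp1r15a, at chr7:45522916-45526268 on the minus strand, encodes GADD34, which brings protein phosphatase to eIF2. At 10 months its values were 1792, 2009, 1634, 1388 and 1882 in wild-type mice 1 to 5 and 1849, 1608, 1594, 2215 and 1685 in mThy1-α-synuclein mice 1 to 5. Wild-type mouse 4 was the lowest and mThy1-α-synuclein mouse 4 the highest of the age, the other mice overlapped, and the log2 fold change was 0.040 ± 0.11, with a 95% interval of -0.20 to 0.28 (limma, adjusted p = 0.865). At 7 months wild-type mice 1 to 4 had 1384, 2570.5, 2035 and 1584, and the mThy1-α-synuclein mice ran from 1477 through 1588 to 1712. At 7 months the log2 fold change was -0.21 ± 0.14 (limma, adjusted p = 0.401) and was -0.049 without wild-type mouse 2. Exons of Ppp1r15a and Tulp2 overlap by 12 bases on opposite strands.

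Trib3, at chr2:152337422-152344032 on the minus strand, encodes a pseudokinase that binds ATF4 and CHOP. At 10 months wild-type mice 1 to 5 had 52.9, 31.0, 34.9, 26.9 and 14.5 normalized counts and mThy1-α-synuclein mice 1 to 5 had 12.5, 14.4, 22.5, 7.79 and 10.0. Only wild-type mouse 5 fell inside the range of the mThy1-α-synuclein mice. Its log2 fold change of -1.17 ± 0.42 was a fold of 0.446, with a 95% interval of 0.239 to 0.833, and did not pass (limma, adjusted p = 0.109). At 7 months the groups overlapped, at 10.1 to 24.4 with the transgene and 5.90 to 25.0 without it, with a log2 fold change of 0.26 ± 0.50 (limma, adjusted p = 0.805). These values rest on 5 to 50 reads per library.

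Asns and Chac1 are enzyme genes driven by ATF4, for asparagine synthesis and glutathione breakdown. Asns, at chr6:7675169-7693254 on the minus strand, was at 400.3, 343, 244, 137 and 153 normalized counts in wild-type mice 1 to 5 at 10 months. The mThy1-α-synuclein mice 1 to 5 were at 165, 160.4, 149, 88.7 and 118. Wild-type mice 1, 2 and 3 stood above every mThy1-α-synuclein mouse, and wild-type mice 4 and 5 lay among them. Its log2 fold change was -0.82 ± 0.29, a fold of 0.568 with a 95% interval of 0.368 to 0.877 (limma, adjusted p = 0.107). DESeq2 gave an adjusted p of 0.0175, and leaving out wild-type mouse 4 gave a limma adjusted p of 0.0363. Leaving out wild-type mouse 2 gave a limma adjusted p of 0.221, and Asns passed under 3 of 20 alternatives. At 7 months Asns ran from 57.2 through 127 to 217 in mThy1-α-synuclein mice against 106, 114, 142 and 83.0 in wild-type mice 1 to 4, with a log2 fold change of 0.16 ± 0.30 (limma, adjusted p = 0.808).

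Chac1, at chr2:119351229-119354381 on the plus strand, had the lowest level per kilobase of the 10 in 3 of the 4 groups. At 7 months wild-type mice 1 to 4 had 24.3, 7.28, 17.7 and 19.2 normalized counts, and mThy1-α-synuclein mice 1 to 6 had 0, 9.19, 12.3, 14.4, 8.12 and 6.06. The count of 0 in mThy1-α-synuclein mouse 1 allows a level of up to 3.36 normalized counts, the worth of 3 reads in that library, for counting error only. Its log2 fold change was -1.23 ± 0.75 (limma, adjusted p = 0.369), with a 95% interval of -2.83 to 0.38. Without mThy1-α-synuclein mouse 1 it was -0.66, and with a pseudocount of 5 it was -0.78. At 10 months wild-type mice 1 to 5 had 9.53, 28.1, 2.83, 8.06 and 9.68, and mThy1-α-synuclein mice 1 to 5 had 8.90, 5.58, 4.28, 4.87 and 12.0. With no filter on low values the log2 fold change there was -0.42 (limma, adjusted p = 0.729).

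**Figure D2:**
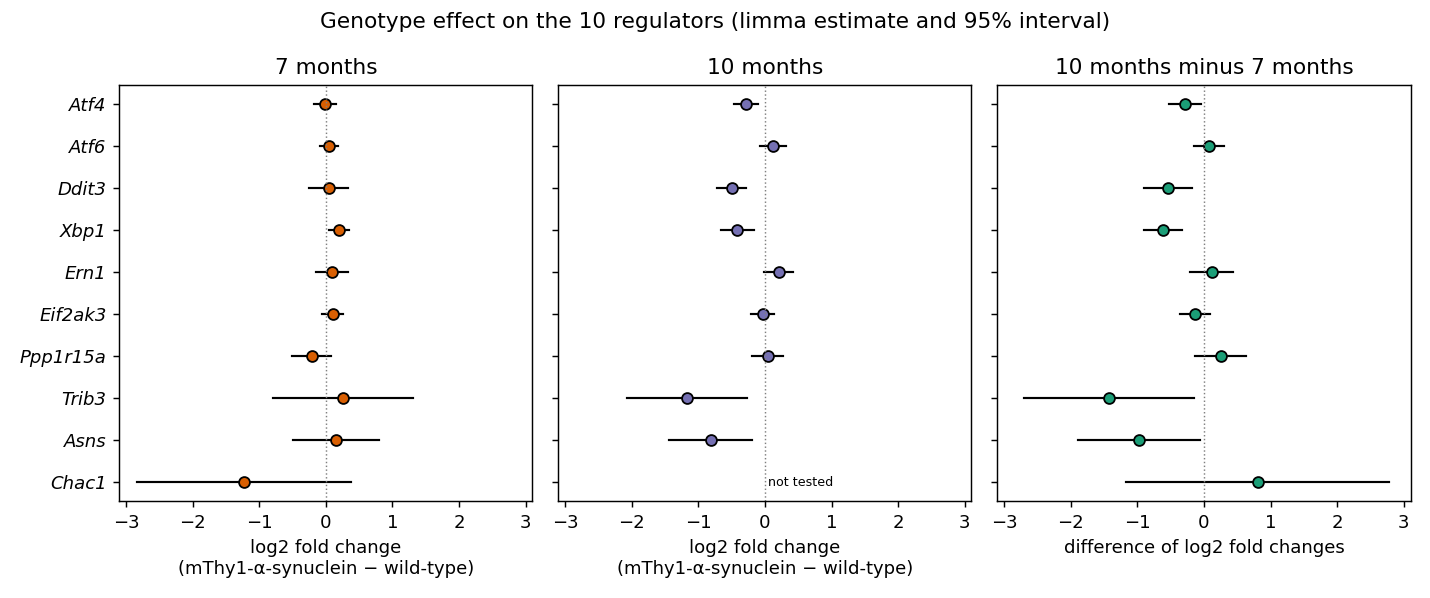
Genotype effect on each regulator as a log2 fold change, mThy1-α-synuclein minus wild-type, at 7 months and at 10 months, and the difference between the ages, each point with its 95% interval. The intervals of Atf4, Ddit3, Xbp1, Trib3 and Asns lie below 0 at 10 months, where only Ddit3 and Xbp1 passed the test after adjustment. The intervals of Trib3, Asns and Chac1 are the widest, and Chac1 was not tested at 10 months.

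The genotype effect was then compared between the ages, as the 10-month effect minus the 7-month effect in a fit over all 20 mice. Of the 10 regulators 1, Xbp1, passed, and limma called 6.6% of 14030 genes in this contrast, 2.73% as lower. Xbp1 changed from a positive to a negative difference, with a contrast of -0.61 ± 0.14 on the log2 scale and a 95% interval of -0.90 to -0.32 (limma, adjusted p = 0.0108). It passed in each of 29 alternative settings, with adjusted p between 0.00153 and 0.0282. Among the others, Trib3 was at -1.42 ± 0.62 (limma, adjusted p = 0.173) and Asns at -0.97 ± 0.44 (adjusted p = 0.198). Eif2ak3 was at -0.13, Atf6 at 0.076, Ern1 at 0.12, Ppp1r15a at 0.25 and Chac1 at 0.81, with adjusted p from 0.462 to 0.737. The Chac1 contrast was 0.24 without mThy1-α-synuclein mouse 1 at 7 months, and the Ppp1r15a contrast was 0.090 without wild-type mouse 2 at 7 months. In all 5 regulators had an unadjusted p under 0.05, against 22.2% of all genes, and the median contrast was -0.21 against -0.0032 over all genes.

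The chaperone and isomerase genes that XBP1 and ATF6 drive had the sign of Xbp1 for the most part at each age. Of 19 such ER folding genes, 6 rose at 7 months (2.23% of all genes rose) and 11 fell at 10 months (3.79% of all genes fell) in mThy1-α-synuclein mice. In all 18 of the 19 had positive log2 fold changes at 7 months, with a median of 0.24, and 16 had negative ones at 10 months, with a median of -0.39, against 0.00093 and -0.0026 over all genes. This list was also drawn up with earlier results of these data known. The genes that rose at 7 months were Creld2, Pdia4, Hspa5, Hsp90b1, Pdia6 and Hyou1, by log2 fold changes of 0.46, 0.42, 0.40, 0.30, 0.29 and 0.28. All 6 fell at 10 months, by log2 fold changes of -0.72, -0.39, -0.69, -0.47, -0.67 and -0.55 in the same order, and Sdf2l1, Manf, Calr, Dnajb11 and Pdia3 fell with them. The count at 7 months was 2 without wild-type mouse 1 and 3 without wild-type mouse 2, mThy1-α-synuclein mouse 3 or mThy1-α-synuclein mouse 6, while at 10 months it stayed between 9 and 12 whichever mouse was left out. Canx, the calnexin gene, had log2 fold changes of 0.065 and -0.080.

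Hspa5, the gene of the ER chaperone BiP, was at 39736, 41088, 38966 and 42072 normalized counts in wild-type mice 1 to 4 at 7 months, and ran from 48269 to 65871 in the mThy1-α-synuclein mice. At 10 months wild-type mice 1 to 5 had 103335, 62611, 54190, 66390 and 66331 and mThy1-α-synuclein mice 1 to 5 had 37493, 44222, 37271, 47912.5 and 47637. The groups did not overlap at either age and their order was reversed. The log2 fold changes were 0.40 ± 0.085 (limma, adjusted p = 0.0128) at 7 months and -0.69 ± 0.15 (limma, adjusted p = 0.0209) at 10 months. Hspa5 did not pass at 7 months without wild-type mouse 1, without limma's trend and robust estimation or in 1 fit over all 20 mice, and it did not pass at 10 months without mThy1-α-synuclein mouse 1. In the contrast between ages 11 of the 19 folding genes were lower by the test, with Hspa5 at -1.09 (limma, adjusted p = 0.00148), Creld2 at -1.18 (adjusted p = 0.00012) and Pdia6 at -0.96 (adjusted p = 1.86e-05). These contrasts share all their mice with that of Xbp1. At 7 months the summed neuron markers ran from 674 to 953 normalized counts with the transgene and from 1397 to 2123 without it, and their part in the differences of Xbp1 and the folding genes was not tested.

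**Figure D3:**
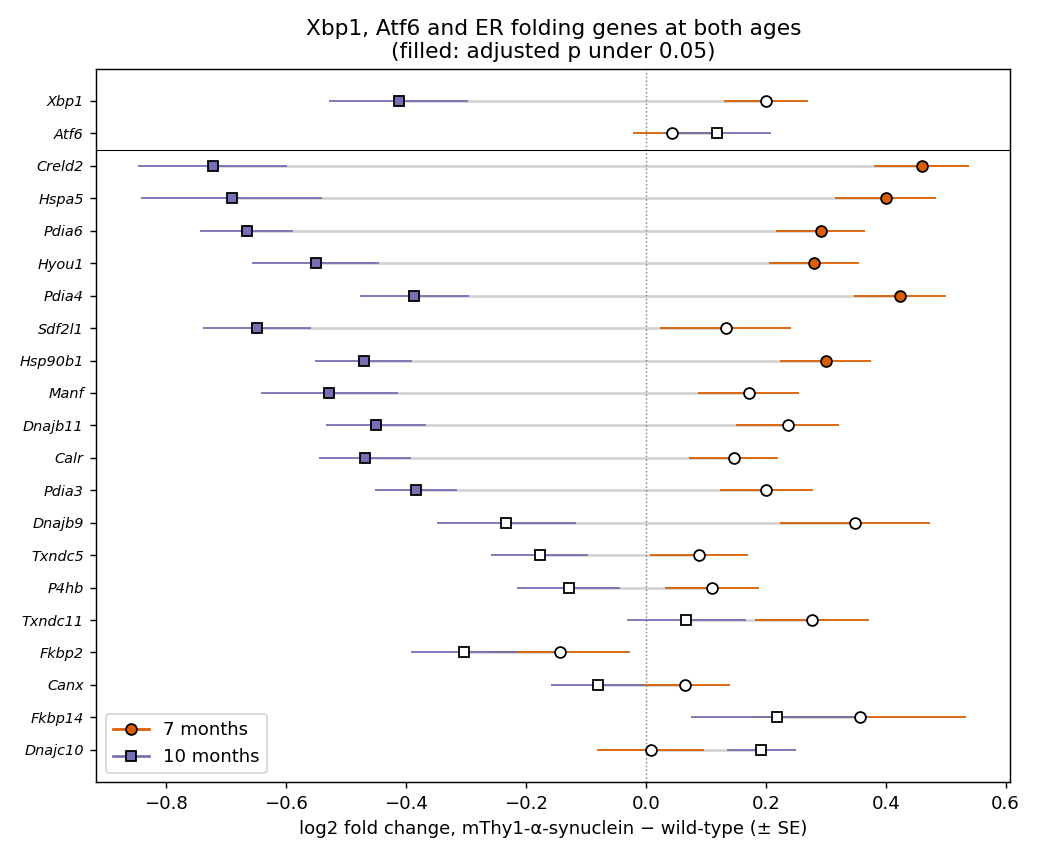
Log2 fold change, mThy1-α-synuclein minus wild-type, with its SE, of Xbp1, Atf6 and 19 ER folding genes at 7 months (circles) and 10 months (squares), filled where the adjusted p was under 0.05. Xbp1 and 11 of the folding genes are filled at 10 months, to the left of 0, while 6 folding genes and neither Xbp1 nor Atf6 are filled at 7 months, to the right of 0.

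Of 27 genes of ER-associated degradation and translocation, 3 were higher and 1 lower by the test at 7 months, where 4.93% of all genes passed. At 10 months 1 was higher and 2 lower, where 7.67% of all genes passed. The 3 that rose at 7 months were Derl2 (log2 fold change 0.37), Herpud1 (0.30) and Sel1l (0.28), which serve the removal of misfolded protein, and Sec61g, a subunit of the translocon, fell (-0.44). At 10 months Derl2 (-0.32) and Spcs2 (-0.31), a signal peptidase subunit, fell and Edem1 (0.36) rose. In the contrast between ages Derl2, Herpud1, Syvn1, Sel1l and Spcs2 were lower by the test. Of 12 genes that sense ER stress or process the sensors, 0 passed limma's test at 7 months, where 7 had an unadjusted p under 0.05, against 21.3% of all genes. At 10 months Atf6b, a relative of Atf6, fell (log2 fold change -0.28) and Mbtps2, a gene for a protease that cleaves ATF6, rose (0.29). In the contrast between ages Atf6b (-0.53) was lower and Rtcb (0.40) higher by the test, where 6.6% of all genes passed.

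Other genes of the eIF2 arm were set against the shares over all genes. Of 19 genes for eIF2 kinases, eIF2, eIF2B and factors acting with them, 0 passed limma's test at 7 months (all genes: 4.93%). There 4 had an unadjusted p under 0.05, against 21.3% of all genes. At 10 months 1, Eif2a (log2 fold change 0.25), passed (all genes: 7.67%), and 4 had an unadjusted p under 0.05, against 23.5%. In the contrast between ages Nck1 (-0.39) was lower and Eif2a (0.36) higher by the test (all genes: 6.6%). Eif2a encodes eIF2A, a separate initiation factor that is not a subunit of eIF2. The other eIF2 kinase genes Eif2ak1, Eif2ak2 and Eif2ak4 had log2 fold changes of -0.035, 0.11 and -0.044 at 10 months. Ppp1r15b, the constitutive counterpart of Ppp1r15a, had log2 fold changes of 0.20 at 7 months, where its groups did not overlap, and -0.096 at 10 months (limma, adjusted p = 0.0831 and 0.499).

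ATF4 targets other than the listed regulators were read against the 4.93% of all genes that passed at 7 months and the 7.67% at 10 months, and against the 21.3% and 23.5% with an unadjusted p under 0.05. Of genes for amino acid synthesis and transport, 2 of 21 fell at 7 months, Aldh1l2 (log2 fold change -0.62) and Pycr1 (-1.79). At 10 months 2 of 20 fell, Aldh1l2 (-0.89) and Slc1a4 (-1.06), and Got1 (0.44) rose. In this list 6 had an unadjusted p under 0.05 at 7 months and 4 at 10 months. Aldh1l2, a mitochondrial folate enzyme, was at 576 ± 78.6 normalized counts with the transgene and 1073 ± 199 without it at 10 months. Of 14 aminoacyl-tRNA synthetase genes 0 passed limma's test at either age, with 2 at an unadjusted p under 0.05 at each. Of 20 other stress regulators under ATF4 or CHOP, 3 fell at 10 months, namely Gadd45a (-1.38), Slfn2 (-1.15) and Jdp2 (-0.63). At that age 9 of the 20 had an unadjusted p under 0.05, and 14 had negative log2 fold changes, with a median of -0.14. At 7 months 0 of the 20 passed limma's test, with 2 at an unadjusted p under 0.05. Atf5, a factor close to Atf4, was at -0.52 at 10 months (limma, adjusted p = 0.0616).

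Deviations from the group means were next compared across the 20 mice as a description with no test, since all genes of a mouse share its library and depth. Among the 45 pairs of regulators Atf4 and Xbp1 had the highest Pearson r, 0.646 (Spearman's rho 0.582), and r was 0.591 without the 2 farthest mice. Over all tested genes those most like Xbp1 were BC017643 (r = 0.891), Hspa5 (0.885) and Mat2a (0.881). For Hspa5 rho was 0.818, and r was 0.775 without the 2 farthest mice. Xbp1 followed the summed ER folding genes less closely, with r = 0.4996 (rho 0.358, and r = 0.402 without the 2 farthest mice). Atf4 and the same sum had r = 0.591 (rho 0.668, and r = 0.554 without the 2 farthest mice). The genes most like Atf4 were Pmm1 (0.872), Cr1l (0.833) and Psmd8 (0.833). Those most like Ddit3 were Pcbp1 (0.850), Ruvbl1 (0.820) and Prpf3 (0.747). Among the sensors, Atf6 was most like Iars (0.964), Ern1 most like Ep400 (0.941) and Eif2ak3 most like Ero1lb (0.833). For the rest the nearest genes were Meaf6 for Ppp1r15a (0.765), Rufy4 for Trib3 (0.795), Stfa2l1 for Asns (0.910) and B3gnt4 for Chac1 (0.841). Without the 2 farthest mice r was 0.549 for Meaf6, 0.796 for Rufy4, 0.845 for Stfa2l1 and 0.724 for B3gnt4, and 0.590 for Prpf3. The Chac1 values rest on 0 to 27 reads per library.

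**Figure D4:**
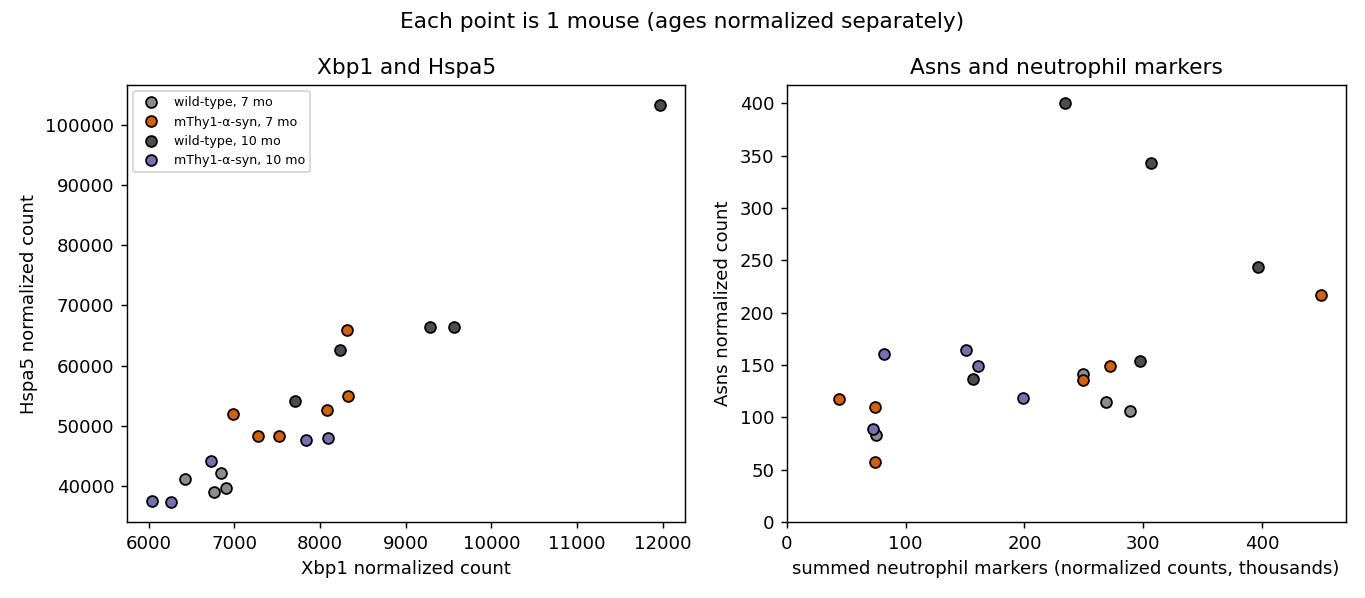
Each point is 1 mouse, colored by genotype and age. The left panel plots Hspa5 against Xbp1 normalized counts, where wild-type mouse 1 at 10 months is at 103335 and 11969.5, and the right panel plots Asns against the summed counts of 9 neutrophil markers (axis in units of 1000), where r of the deviations from group means was 0.552.

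Wild-type mouse 1 at 10 months was the highest of its group in 8 of the 10 regulators and the lowest in 0. Markers of other myeloid cells moved with the genotype at 10 months. Summed over 9 neutrophil markers the libraries held 72820 to 198973 normalized counts with the transgene and 156971 to 396898 without it, and the median log2 fold change of the 9 was -1.08. The 7 monocyte markers summed to 19990.4 to 30937 against 32561 to 59074, and the 8 border macrophage markers to 14308 to 18824 against 19283 to 23926, without overlap in either case. Lymphocyte markers, 6 of 10 lower by the test (3.79% of all genes were lower), summed to 990.2 to 1376 against 1674 to 3193. No marker of these lists was at 0 in every mouse of a group. Across the 20 mice the deviations of Asns followed the summed neutrophil markers, with r = 0.552 (rho 0.502, and r = 0.597 without the 2 farthest mice), those of Xbp1 ran against them with r = -0.445 (rho -0.501), and those of Ddit3 had r = 0.105 and Atf4 r = 0.032. The part of these cells in the differences of Ddit3, Xbp1 and Asns was not tested.

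Among 16 immediate-early and heat shock genes known to be induced when tissue is dissociated, 1, Fosb (log2 fold change -0.67), passed the test at 10 months (limma, adjusted p = 0.0474). At that age 13 of the 16 had negative log2 fold changes, with a median of -0.24, and 9 had an unadjusted p under 0.05, against 23.5% of all genes. At 7 months 12 were negative, with a median of -0.16, 3 had an unadjusted p under 0.05, against 21.3% of all genes, and 0 passed limma's test. The summed levels of the 16 at 10 months overlapped between the groups, at 89490 to 108108 normalized counts with the transgene and 86770 to 134543 without it. Their part in the differences of Ddit3 and Xbp1 was not tested.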

How the data were processed

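RNA of bead-selected microglia from 20 male mice was sequenced in 1 run. The authors trimmed reads with Trim Galore 0.6.7, aligned them to mm10 with HISAT2 2.2.1, counted them per gene with featureCounts and scaled them with DESeq2 1.44.0. The annotation release and strand setting are not given in the sources used here. The deposited values are a normalized signal per gene, that is gene counts divided by a size factor set within each age, and 100% of values were whole reads within 0.01 when divided by the worth of 1 read. The members and gene lists were chosen with earlier results of these data known.

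Genes that reached 10 in 4 or more mice (7 months) or 5 or more (10 months) were tested on log2(value + 1) with limma 3.58.1 (R 4.3.3; trend and robust estimation) for mThy1-α-synuclein minus wild-type mice. The contrast between ages came from 1 fit over all 20 mice and the genes kept at either age. P-values were adjusted over all tested genes, with a threshold of 0.05. Intervals are 95%. The genes named were drawn from the 10 regulators and, in each list, those past the threshold (at most the 8 with the smallest p) and the 2 of highest level. For each regulator the 3 genes with the highest correlation of deviations from group means were found. All 3 are named for Xbp1, Atf4 and Ddit3, and only the first for the other regulators. Eif2ak1, Eif2ak2, Eif2ak4, Ppp1r15b, Atf5 and Mars were named after their values were seen. Alternatives were edgeR 4.0.16 and DESeq2 1.42.0 on recovered reads, other pseudocounts, filters, scaling and fits, a replicate block, and leaving out each mouse. Alternatives for the counts of ER folding genes and of all genes were chosen after seeing the data. Exon positions and lengths came from GENCODE M21. No 2 libraries of a group agreed within sampling noise, with chi-square per gene of at least 23.4. The limma fits at 7 months and at 10 months were tested on simulated data, while the contrast between ages and the alternatives were not.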

Additional observations from a re-analysis of the deposited data

Results flagged for a closer look

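Among the 10 regulators, 2 of 40 sets of values (1 gene in 1 group) had a mouse far from the others, where chance gives about 1 in 20. Wild-type mouse 1 at 10 months had 1003 normalized counts of Ddit3, and the next wild-type mouse had 822. Wild-type mouse 2 at 10 months had 28.1 normalized counts of Chac1, and the next had 9.68. The genotype effect differed between the ages, by limma's test of that difference, for Xbp1 at -0.61 (10 months minus 7 months, log2 scale). The same held for 11 ER folding genes, at -1.18 for Creld2, -1.09 for Hspa5, -0.96 for Pdia6, -0.83 for Hyou1, -0.81 for Pdia4, -0.78 for Sdf2l1, -0.77 for Hsp90b1, -0.70 for Manf, -0.69 for Dnajb11, -0.61 for Calr and -0.58 for Pdia3.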

How the results depend on the processing

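At 7 months the count of regulators past the threshold was 0 under all 20 alternatives. At 10 months it was 2, and it was 1 (Ddit3) with no filter on low values or without limma's trend and robust estimation, 4 with DESeq2 (Atf4, Ddit3, Xbp1 and Asns) and between 1 and 3 when a mouse was left out. For the contrast between ages it was 1, and it was 2 with DESeq2 (Ddit3 and Xbp1) and between 1 and 2 when a mouse was left out, the 2 arising without mThy1-α-synuclein mouse 4 or wild-type mouse 2 at 7 months. The other alternatives kept these counts within 1.5 times. Ddit3 at 10 months passed under 20 of 20 alternatives and Xbp1 under 10 of 20, with log2 fold changes between -0.48 and -0.32. Xbp1 in the contrast passed under 29 of 29, Atf4 at 10 months under 7 of 20, Asns under 3 of 20 and Trib3 under 0 of 20.

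The replicate numbers did not pair the mice: deviations of mice with the same number had r between -0.134 and 0.0995, and no mouse matched its own number best. With the replicate block 3 regulators passed at 10 months (Ddit3, Xbp1 and Asns), 0 at 7 months and 1 in the contrast. Over all genes the block called 414 at 7 months and 481 in the contrast, where the fits without it called 684 and 926. DESeq2 called 1163 genes at 7 months and 1692 at 10 months, where limma called 1045. Limma without trend and robust estimation called 408 and 565. Leaving out a mouse gave 282 (without wild-type mouse 1) to 858 genes at 7 months, 497 (without wild-type mouse 2) to 1235 at 10 months and 623 (without wild-type mouse 1 at 10 months) to 1089 in the contrast. The ER folding count at 7 months, 6, was 4 with 1 fit over all 20 mice, 3 with the block and 2 without trend and robust estimation. The cause of these changes was not tested.

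Trib3 and Chac1 rest on 50 reads or fewer per library, and the part of this low depth in their wide intervals was not tested.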
